A study of Mus musculus with 9 samples.

Results

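The interferon-gamma-induced GTPases are enzymes that immune and tissue cells make in quantity after exposure to the cytokine interferon-gamma. Those described here are the 9 genes Gbp2, Gbp3, Gbp5, Gbp7, Irgm1, Irgm2, Igtp, Iigp1 and Tgtp2. They were taken by gene name from a table of 32671 mouse genes, by a rule that uses no measured value, with earlier results of these data known. All 9 were found, and all 9 were among the 20794 genes that passed the filter on low counts.

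Interferon-gamma binds the receptor made by Ifngr1 and Ifngr2 and signals through the kinases Jak1 and Jak2. Irf1 is among the transcription factors of this signalling. Promoters of GTPase genes carry 2 kinds of element for this signalling, the palindromic GAS element and the interferon-stimulated response element (ISRE), which Irf proteins bind. Guanylate-binding proteins (GBPs) are large GTPases that coat and break the vacuoles of intracellular pathogens and promote inflammasome responses. The immunity-related GTPases (IRGs) are smaller and fall into effectors, here Iigp1 and Tgtp2, which load onto pathogen vacuoles, and regulators, here Irgm1, Irgm2 and Igtp (also called Irgm3), which keep the effectors off the cell's own membranes. In the lung they are best known for defence against mycobacteria and other intracellular microbes.

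Whole lungs of wild-type C57BL/6 mice were taken at day 21 and their messenger RNA was sequenced, in 3 groups of 3 libraries. Control mice received saline. The bleomycin group was challenged with bleomycin, a DNA-damaging drug that provokes lung scarring. The third group, called LNP below, was also challenged with bleomycin and was then treated with inhaled lipid nanoparticles labelled mCas9/gSting@DOPS, which are named for the nuclease Cas9 and a guide against Sting. All mice of the LNP group had thus received bleomycin, and no group with particles alone, or with particles lacking the guide, was analysed here. Nothing in the labels ties the samples to separate animals, and p-values therefore reflect only how these libraries vary, which may be technical. The comparison of bleomycin with control asks how the injury moved the GTPase genes, and the comparison of LNP with bleomycin asks how the treatment moved them. These comparisons share the bleomycin libraries.

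Totals of gene counts ran from 56047830 to 69404903 per library. Levels of a gene across libraries are given as CPM, counts scaled to a common library size with edgeR's TMM factors. The replicate 3 library of the LNP group stood apart. Its 11 skeletal muscle markers summed to 9373 CPM, against 8.96 to 62.4 CPM in the other 8 libraries, where Myh4, a fast muscle myosin, was at 0. Its 10 squamous epithelium markers summed to 1909 CPM, against 5.46 to 53.8 CPM elsewhere. Counts that rest on the LNP group are therefore given with and without this library. Alveolar epithelial markers, which identify lung, were present in every library and summed to between 9829 and 34477 CPM. For Sting1, to which the guide is directed, control replicates 1 to 3 had 18.4, 23.9 and 20.9 CPM, bleomycin replicates 53.8, 41.5 and 40.5 CPM, and LNP replicates 51.8, 62.0 and 44.3 CPM. LNP replicates 1 and 3 thus lay inside the bleomycin range and replicate 2 lay above it. An RNA level does not show whether a guide had cut the gene.

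The genes lie in clusters. In the coordinates of the deposited table (the sources used here do not give their build), Gbp5, Gbp7, Gbp3 and Gbp2 follow each other on chromosome 3, from 142199739 to 142343769. Irgm1 (48752795 to 48762510) and Tgtp2 (48948021 to 48955033) lie on the minus strand of chromosome 11, and Igtp (58090382 to 58098417) and Irgm2 (58105834 to 58113608) lie side by side further along it. RefSeq promoter windows on GRCm38.p6, of 250 bases before to 50 bases after the gene's start, were matched for 8 of the 9 symbols, all except Iigp1, and Gbp3 had 2 windows.

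The promoter stretches below are printed because they hold the letters through which interferon-gamma signalling is known to act, and because their genes did not all move alike. Each line gives the 110 bases just before the start, in the direction of transcription, with matches to the ISRE letters GAAANNGAAA or the GAS letters TTCNNNGAA, searched on both strands, in capitals. The stretches are chr11:58214867-58214976 (plus strand) for Irgm2, chr11:58199446-58199555 (plus) for Igtp, chr11:49064213-49064322 (minus) for Tgtp2, chr11:48871421-48871530 (minus) for Irgm1 and chr3:142620553-142620662 (plus) for Gbp2.
Irgm2: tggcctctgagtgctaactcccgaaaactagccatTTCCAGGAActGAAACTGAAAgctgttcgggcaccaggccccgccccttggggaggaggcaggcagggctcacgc
Igtp: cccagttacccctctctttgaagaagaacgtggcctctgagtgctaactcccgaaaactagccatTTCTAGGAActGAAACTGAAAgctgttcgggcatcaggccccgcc
Tgtp2: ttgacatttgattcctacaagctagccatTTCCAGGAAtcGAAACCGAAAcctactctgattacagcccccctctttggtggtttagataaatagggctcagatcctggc
Irgm1: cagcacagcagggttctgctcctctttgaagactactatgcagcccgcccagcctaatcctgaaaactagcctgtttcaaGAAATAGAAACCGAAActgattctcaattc
Gbp2: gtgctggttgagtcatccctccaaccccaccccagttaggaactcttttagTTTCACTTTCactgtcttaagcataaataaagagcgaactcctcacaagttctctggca

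All 8 matched symbols held an ISRE match, against 3.44% of the 32851 RefSeq promoter windows of the same length. A GAS match was found in 5 of the 8, Gbp5, Gbp7, Tgtp2, Igtp and Irgm2, against 8.3% of all windows, and each of these 5 also held the ISRE, against 0.454% of all windows. In Igtp, Irgm2 and Tgtp2 the GAS letters, 2 spacer bases and the ISRE letters follow each other as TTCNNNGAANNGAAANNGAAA. That arrangement occurred in 5 of all 32851 windows (0.0152%), the other two being Tgtp1 and Gm12185, which are relatives of these IRG genes. The match began 45 bases before the start in Igtp, 75 in Irgm2, 81 in Tgtp2, 86 in Gm12185 and 88 in Tgtp1. The arrangement was chosen after these promoters had been read, and the genes are duplicates of each other. A run of 61 bases is shared between the windows of Igtp and Irgm2 and of 17 bases between Irgm2 and Tgtp2. The windows of Tgtp2 and Gm12185 share a run longer than either, whose length was not measured. The 5 windows are therefore not independent. Irgm1 had a pair of overlapping ISRE matches close to its start, and no GAS letters lay in its window. Gbp2 had an ISRE match that began 59 bases before its start, and Gbp3 had an overlapping pair in 1 of its 2 windows. Gbp7 held 2 GAS matches and an ISRE match within the 110 bases before its start, and Gbp5 held an ISRE match between 2 GAS matches. A match describes letters and does not show that a factor was bound.

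**Figure D1:**
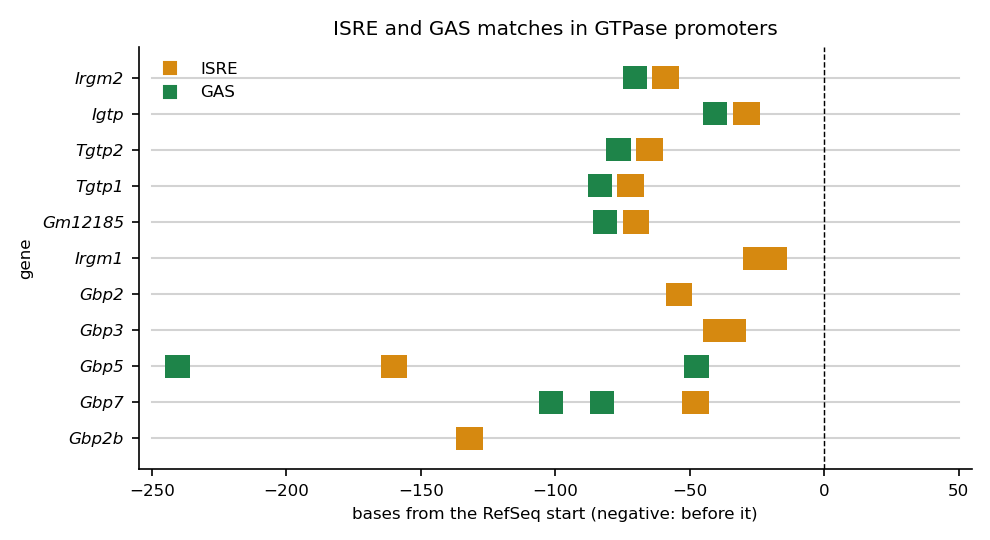
ISRE and GAS matches in the promoter windows of the matched GTPase genes, by distance in bases from the RefSeq start (x axis, negative before the start), 1 row per gene. The GAS and ISRE matches lie side by side in Igtp, Irgm2 and Tgtp2, and Irgm1 has ISRE matches alone.

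Levels between genes were compared per length, as FPKM (fragments scaled by gene length and library depth) from the deposited table, as mean ± SD over n = 3 libraries. In control lung Gbp2, a GBP that attacks pathogen vacuoles, was the most abundant at 39.3 ± 4.76 FPKM. The regulators Irgm2 and Igtp followed at 23.5 ± 3.84 and 23.4 ± 4.91 FPKM, and the effector Tgtp2 at 16.6 ± 5.03 FPKM. Gbp3 (6.57 ± 3.09), the regulator Irgm1 (6.40 ± 1.20), the effector Iigp1 (3.81 ± 2.53), Gbp7 (3.10 ± 1.64) and Gbp5 (2.03 ± 0.616) were lower. In control the libraries of neighbours in this order overlapped except between Gbp2 and Irgm2 and between Tgtp2 and Gbp3.

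In bleomycin lung the order was different. Gbp2 remained the most abundant at 22.4 ± 2.59 FPKM and Igtp came next at 12.3 ± 1.78 FPKM. Irgm2 (8.41 ± 0.324), Irgm1 (8.03 ± 1.85), Iigp1 (7.10 ± 2.5) and Tgtp2 (7.05 ± 1.11) then lay at nearly the same FPKM, and neighbours among these 4 overlapped. In LNP lung Gbp2 was at 32.7 ± 10.4, Igtp at 19.4 ± 4.96, Irgm2 at 16.5 ± 5.61, Tgtp2 at 12.0 ± 3.43 and Irgm1 at 8.46 ± 0.595 FPKM, with every neighbour in this order overlapping. Gbp7 and Gbp5 were the lowest members in all 3 groups.

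After bleomycin, 4 of the 9 GTPase genes fell and 0 rose, at a Benjamini-Hochberg adjusted p under 0.05 over all genes in edgeR's quasi-likelihood test. Of all genes tested, 18.5% were called lower and 15.2% higher. The 4 that fell were the regulators Irgm2 and Igtp, the effector Tgtp2, and Gbp2. None of the 9 rose at an unadjusted p under 0.05 either, and DESeq2 also called 4 lower and 0 higher. The median log2 fold change of the 9 was -0.73, beside -0.05 over all genes. In whole tissue, fewer cells of a type and less RNA per cell cannot be told apart.

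Irgm2 fell most. It was at 96.8, 81.2 and 104 CPM in control replicates 1 to 3 and at 35.6, 36.0 and 34.6 CPM in bleomycin. The bleomycin libraries lay close together and below all controls, a log2 fold change of -1.41 ± 0.23 (SE; adjusted p = 0.0018), or 2.66-fold lower. Igtp, its neighbour on chromosome 11, was at 53.3, 41.5 and 58.7 CPM in control and at 32.4, 30.2 and 22.6 CPM in bleomycin. Its groups did not overlap and it fell by 0.85 ± 0.22 on the log2 scale (adjusted p = 0.015). Irgm1, the regulator known for resistance to mycobacteria and for restraint of interferon responses, did not follow them. It was at 42.8, 33.4 and 44.5 CPM in control and at 68.4, 53.4 and 38.9 CPM in bleomycin, with a log2 fold change of 0.41 ± 0.20 (adjusted p = 0.14). Bleomycin replicates 1 and 2 lay above every control and replicate 3 lay among them. Without bleomycin replicate 3, Irgm1 was called higher at 0.60 ± 0.18 (adjusted p = 0.037), where 12.3% of all genes were called higher.

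The 2 effectors also parted, Tgtp2 on chromosome 11 and Iigp1 on chromosome 18 (60509099 to 60525172 in the deposited table). Tgtp2 was at 62.5, 36.4 and 59.1 CPM in control and at 28.7, 23.5 and 19.1 CPM in bleomycin. Its groups did not overlap, and its log2 fold change was -1.15 ± 0.26 (adjusted p = 0.0092). Its near-identical copy Tgtp1 was at -0.15 ± 0.34 (adjusted p = 0.76), and reads could have been split between the copies. With the counts of both copies summed, the log2 fold change was -0.71 ± 0.29 and no longer passed (adjusted p = 0.090). Iigp1 was at 26.6, 7.19 and 37.3 CPM in control and at 66.1, 48.4 and 28.6 CPM in bleomycin. Its groups overlapped, and the estimate of 1.01 ± 0.49 did not pass (adjusted p = 0.14). Control replicate 2 had the lowest level of Iigp1 by a wide margin.

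Among the GBPs, Gbp2 was at 109, 97.6 and 115 CPM in control and at 75.1, 64.1 and 54.2 CPM in bleomycin. Its groups did not overlap and it fell by 0.73 ± 0.22 on the log2 scale (adjusted p = 0.028). Gbp3 was at 24.4, 12.2 and 32.5 CPM in control and at 20.2, 17.7 and 13.6 CPM in bleomycin, an estimate of -0.43 ± 0.35 (adjusted p = 0.37). Gbp5, which promotes inflammasome assembly, was at 17.2, 10.0 and 16.4 CPM in control and at 12.4, 9.64 and 7.28 CPM in bleomycin, an estimate of -0.57 ± 0.26 (adjusted p = 0.12). Control replicate 2 lay among the bleomycin libraries for Gbp5 and below all of them for Gbp3, so that both genes overlapped. Gbp7 was at 22.9, 7.89 and 25.2 CPM in control and at 9.49, 10.96 and 13.0 CPM in bleomycin, an estimate of -0.74 ± 0.37 (adjusted p = 0.15). Its control replicate 2 lay under all bleomycin libraries and the other two controls lay above them.

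The groups did not overlap for the same 4 genes that passed, all lower, and for 0 higher, while 29.6% of all genes were lower and 25.9% higher without overlap. The count of members called lower was 2 without control replicate 3 and 2 without bleomycin replicate 3, and in each case these were Irgm2 and Tgtp2, beside 13.1% and 14.7% of all genes. It was 6 without control replicate 2, when Gbp5 (-0.79, adjusted p = 0.040) and Gbp7 (-1.11, adjusted p = 0.0090) were added, beside 15.5% of all genes. Gbp2 lost its call without control replicate 1 or 3 or bleomycin replicate 2 or 3, and Igtp without control replicate 3 or bleomycin replicate 3. Irgm2 and Tgtp2 as listed kept theirs in all 9 fits with 1 library left out.

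**Figure D2:**
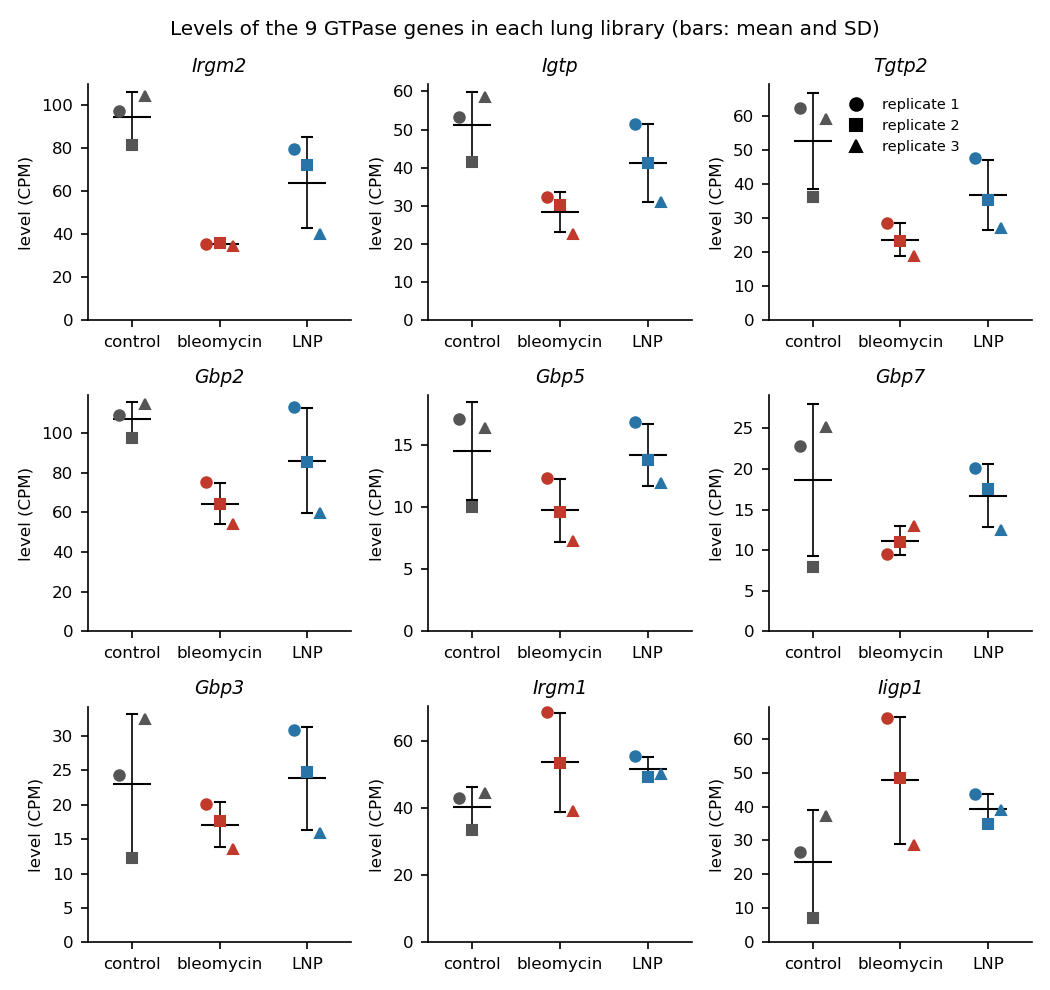
Level of each GTPase gene in CPM (y axis) in each library of the control, bleomycin and LNP groups (x axis), with 1 symbol shape per replicate number, a horizontal mark at the group mean and bars of 1 SD (n = 3). Irgm2, Igtp, Tgtp2 and Gbp2 have all bleomycin libraries below all controls, while Irgm1 and Iigp1 have bleomycin replicates 1 and 2 above all controls.

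Markers of several cell types moved with the same contrast, in which 18.5% of all genes were called lower and 15.2% higher. All 20 T and NK cell markers were called lower after bleomycin and their sum went from 189 to 196 CPM in control to 34.6 to 35.1 CPM in bleomycin. All 12 B cell markers were called lower, with sums of 299 to 475 CPM and 65.3 to 81.2 CPM, and Cr2 was at 0 in bleomycin replicate 1. Of 14 endothelial markers 11 were called lower and 1 higher, with sums of 7781 to 9215 CPM and 5166 to 5351 CPM. Of 20 macrophage markers 12 were called higher and 0 lower, with sums of 852 to 961 CPM and 7873 to 8589 CPM. Of 12 alveolar epithelial markers 6 were called lower and 2 higher, with sums of 25533 to 34477 CPM and 12145 to 13977 CPM. The lower count was 3 without any 1 of the bleomycin libraries, and the higher count was 1 without any 1 of these or without control replicate 1 or 3. Without bleomycin replicates 1 to 3, 2479, 2412 and 3177 of all genes were called lower, against 3843 with all libraries. Those called higher were then 1951, 1963 and 2642, and 2082 and 2121 without control replicates 1 and 3, against 3159. Thus lymphocyte, endothelial and alveolar epithelial RNA took a smaller share of the libraries in which Irgm2, Igtp, Tgtp2 and Gbp2 were lower, and macrophage RNA a larger one. Their part in the GTPase result was not tested.

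Between LNP and bleomycin, 0 of the 9 GTPase genes passed in either direction, where 4.28% of all genes were called higher and 1.87% lower. At an unadjusted p under 0.05, 3 were higher, Irgm2, Igtp and Tgtp2, and 0 lower. DESeq2 called 1 higher, Irgm2. Estimates were above 0 for 7 of the 9, with a median of 0.54 on the log2 scale beside 0.04 over all genes. Only Irgm2 had groups that did not overlap, 1 higher and 0 lower, beside 15.4% and 14.5% of all genes.

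Irgm2 was at 79.5, 72.1 and 39.8 CPM in LNP replicates 1 to 3. Replicates 1 and 2 came close to the lowest control from below, and replicate 3 was just over the highest bleomycin library. The log2 fold change against bleomycin was 0.85 ± 0.23 (adjusted p = 0.056), with a 95% interval of 0.34 to 1.36. Igtp was at 51.4, 41.2 and 31.0 CPM (0.54 ± 0.22, adjusted p = 0.16), and Tgtp2 at 47.7, 35.5 and 27.3 CPM (0.63 ± 0.26, adjusted p = 0.17). In both genes replicate 3 lay inside the bleomycin range and the other two above it. Gbp2 was at 113, 85.5 and 59.8 CPM (0.42 ± 0.22, adjusted p = 0.27), with the same order of libraries.

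The other GBPs gave similar estimates. Gbp5 was at 16.9, 13.8 and 12.0 CPM in LNP libraries (0.54 ± 0.26, adjusted p = 0.23). Gbp7 was at 20.1, 17.5 and 12.5 CPM (0.58 ± 0.37, adjusted p = 0.37), and Gbp3 at 30.8, 24.7 and 16.0 CPM (0.48 ± 0.35, adjusted p = 0.43). In each of these, LNP replicates 1 and 2 lay above all bleomycin libraries and replicate 3 among them. Irgm1 and Iigp1 gave estimates near or below 0. Irgm1 was at 55.5, 49.2 and 50.1 CPM, inside the bleomycin range, with -0.05 ± 0.20 (adjusted p = 0.90) and an interval of -0.50 to 0.39. Scaling by library size alone, which moved the median of all genes by 0.12, turned this estimate to 0.08. Iigp1 was at 43.6, 34.9 and 39.0 CPM, also inside the bleomycin range, with -0.28 ± 0.49 (adjusted p = 0.77) and an interval of -1.37 to 0.80.

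LNP replicate 3, the library with muscle and squamous RNA, set the count for this contrast. It lay inside the bleomycin range for 8 of the 9 members and above it for 1, whereas replicates 1 and 2 each lay above it for 7. Without it, 4 of the 9 members were called higher than in bleomycin and 0 lower, beside 14.0% of all genes higher. These were Irgm2 (1.10 ± 0.13, adjusted p = 0.00036), Gbp2 (0.63 ± 0.16, adjusted p = 0.021), Igtp (0.71 ± 0.19, adjusted p = 0.025) and Tgtp2 (0.81 ± 0.25, adjusted p = 0.038). They are the genes that fell after bleomycin, and both contrasts use the same bleomycin libraries.

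**Figure D3:**
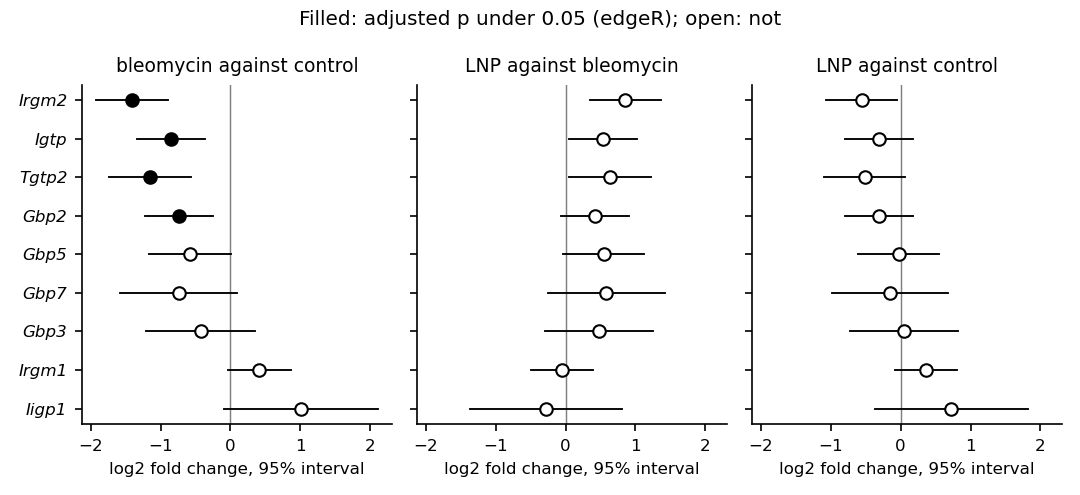
Log2 fold change (x axis) of each GTPase gene in the 3 comparisons, with lines for the 95% interval and filled points for an adjusted p under 0.05 in edgeR. Filled points appear only in bleomycin against control, for Irgm2 (-1.41), Tgtp2 (-1.15), Igtp (-0.85) and Gbp2 (-0.73).

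Cell type markers moved here as well, in a comparison where 4.28% of all genes were called higher and 1.87% lower. Of 20 T and NK cell markers 15 were called higher in LNP than in bleomycin and 0 lower, with sums of 154, 164 and 111 CPM in LNP replicates 1 to 3, where Ncr1 was at 0 in replicate 3. All 12 B cell markers were called higher, with sums of 577 to 746 CPM, above the 299 to 475 CPM of control. The list as a whole was not above control, with 6 estimates above 0, 6 below and a median of 0.02. Only Cd22 and Ighm were called higher in LNP against control, beside 4.95% of all genes. Macrophage markers summed to 2932, 4200.0 and 5766 CPM, between the control and bleomycin ranges. Against bleomycin 2 of the 20 (Spp1 and Chil3) were called lower and 0 higher. Alveolar epithelial markers summed to 25140, 21493 and 9829 CPM, so replicate 3 was below all bleomycin libraries (12145 to 13977 CPM). Of the endothelial markers 0 were called higher and 1 lower, and of the alveolar markers 0 in either direction. Without LNP replicate 3, those called higher against bleomycin were all 20 T and NK cell, all 12 B cell, 10 endothelial, 7 alveolar and 3 macrophage markers, while 9 macrophage markers and 1 endothelial marker were lower. Over all genes that fit called 14.0% higher and 10.7% lower, so the 3 of 20 macrophage markers called higher lay near the share of all genes. Without bleomycin replicate 2, 6 T and NK cell markers were called higher and 0 macrophage markers lower. That fit called only 84 of 21495 genes higher and 18 lower. The lower macrophage count was also 0 without LNP replicate 1, where 41 of all genes were called lower. It was 1 without control replicate 3, bleomycin replicate 1 or LNP replicate 2, where 157, 43 and 53 of all genes were called lower. With all libraries 389 genes were called lower. LNP replicate 3 was thus the lowest of its group for T and NK cell, endothelial and alveolar markers as well as for 7 of the 9 GTPase genes. The part of these cell types in the GTPase levels was not tested.

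Against control, 0 of the 9 GTPase genes passed in the LNP group, beside 4.95% of all genes called higher and 3.08% lower. At an unadjusted p under 0.05 only Irgm2 differed, lower at -0.56 ± 0.23 (adjusted p = 0.17), and DESeq2 called 0. Irgm2 was the 1 member lower without overlap and Irgm1 the 1 member higher without overlap, where 15.2% and 13.7% of all genes were so. Irgm1 was at 0.36 ± 0.20 (adjusted p = 0.31). The intervals remained wide: Gbp2 ran from -0.80 to 0.17, Tgtp2 from -1.10 to 0.07, Igtp from -0.80 to 0.17 and Iigp1 from -0.37 to 1.82. A p that missed the threshold does not show that LNP and control lungs had the same levels. Gbp3 (0.05), Gbp5 (-0.03) and Gbp7 (-0.16) had estimates close to 0 whose sign changed between settings. Without LNP replicate 3, still 0 members passed, and Irgm2 was at -0.27 ± 0.13 (adjusted p = 0.23).

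The balance between members within a library was set out as a ratio of FPKM for 2 pairs, chosen after their values had been seen, so no test is given. Irgm1 relative to Irgm2 was 0.281, 0.261 and 0.271 in the controls, 1.22, 0.944 and 0.715 after bleomycin, and 0.444, 0.433 and 0.797 in the LNP group. The controls lay within a narrow band and every bleomycin library lay far above it. Among the effectors, Iigp1 relative to Tgtp2 was 0.215, 0.0996 and 0.318 in the controls, 1.16, 1.04 and 0.757 after bleomycin, and 0.462, 0.496 and 0.722 in the LNP group. In both pairs LNP replicates 1 and 2 lay between the groups, and replicate 3 lay nearest to bleomycin. The Iigp1 pair carries the uncertainty of Tgtp2 and its copy.

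**Figure D4:**
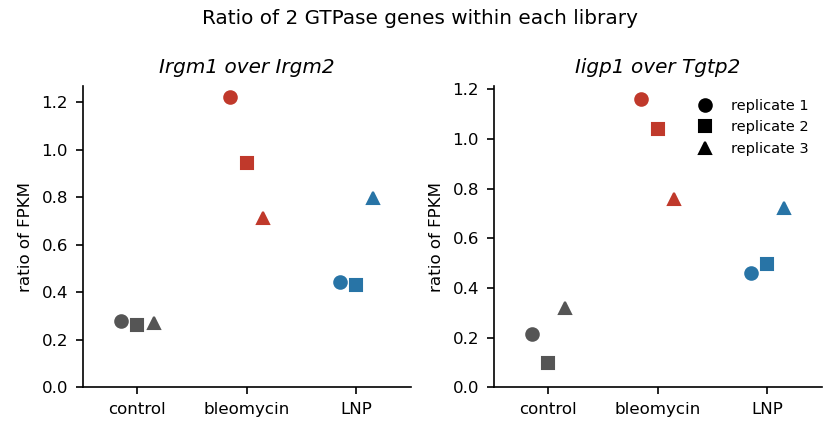
Ratio of FPKM (y axis, from 0) of Irgm1 over Irgm2 and of Iigp1 over Tgtp2 within each library of the 3 groups (x axis), with 1 symbol shape per replicate number. For Irgm1 over Irgm2 the controls lie between 0.261 and 0.281 and the bleomycin libraries between 0.715 and 1.22.

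The members also varied together within groups. Control replicate 2 was the lowest control for all 9 members, bleomycin replicate 3 the lowest of its group for 8, and LNP replicate 1 the highest of its group for all 9. In the LNP group 7 members were lowest in replicate 3, while Irgm1 and Iigp1 were lowest in replicate 2 and varied little, with SDs of 3.43 CPM around 51.6 CPM and 4.36 CPM around 39.2 CPM. In bleomycin these 2 genes ranged more widely, from 38.9 to 68.4 and from 28.6 to 66.1 CPM. The spread was smallest for Irgm2 in bleomycin, with an SD of 0.722 CPM around 35.4 CPM, and largest relative to its mean for Iigp1 in control, with an SD of 15.3 CPM around 23.7 CPM.

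Likeness of pattern was measured as the root mean square difference between z-scored log2 CPM over the 9 libraries, a description in which all genes share the same libraries. Igtp and Tgtp2 were each other's nearest member (0.190), Gbp2 was nearest to Igtp (0.237), and Irgm2 was also nearest to Igtp (0.339). Irgm1 and Iigp1 were each other's nearest (0.451), and both lay farthest from the mean pattern of the 9 (1.12 each). Gbp5 was nearest to Tgtp2 (0.430), Gbp3 to Gbp5 (0.479) and Gbp7 to Gbp3 (0.535). Igtp and Tgtp2 lie far apart on chromosome 11. Gbp2, with no GAS match, was nearer to Igtp than Irgm2, which holds the same arrangement as Igtp.

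Among 11794 other genes with a mean of at least 5 CPM, those nearest to the mean pattern were Aftph (0.333), Acsl3 (0.361), Saxo2 (0.372), Tlcd4 (0.373), Slc25a14 (0.376), Cbll1 (0.381), Yae1d1 (0.400) and Cetn2 (0.402). Acsl3, a fatty acid activating enzyme, had 22.3, 17.1 and 25.0 CPM in the controls, 15.3, 13.8 and 11.8 CPM after bleomycin, and 22.6, 21.5 and 15.9 CPM in the LNP group. It shared the low control replicate 2 and the low LNP replicate 3 with the GTPase genes. After bleomycin Acsl3 fell by 0.65 ± 0.20 (adjusted p = 0.029) and Saxo2 by 1.18 ± 0.33 (adjusted p = 0.021) on the log2 scale. Cetn2, a centrin, fell by 0.96 ± 0.30 (adjusted p = 0.032), and the other 5 did not pass. These genes were picked for their levels in these same libraries, so a fall is built into the choice. Their p-values therefore lend no support, and 18.5% of all genes were called lower.

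Transcript counts, which summed to the gene counts, differed in how far they can be read. Gbp2 had 1 transcript, Tgtp2 had 99.9% of its counts in 1, and Gbp7 had 97.7% in 1. Igtp had 90.0% and Gbp5 93.4% in 1 transcript. For Irgm2 the most used transcript held 31.5%, 79.2% and 94.5% of counts in the 3 controls and 15.1%, 54.3% and 66.0% in bleomycin. For Irgm1 the most used transcript held 73.9%, 65.5% and 9.67% in control and 75.1%, 74.8% and 74.1% in bleomycin. For Iigp1 it held 53.2%, 9.26% and 92.9% in control and 92.4%, 91.0% and 0% in LNP. Shares that swing this far between libraries of 1 group were not compared between groups, and only gene counts were tested.

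Relatives of the GTPase genes were taken from a list of 24 symbols, of which 16 were in the table and all 16 were tested. After bleomycin 5 of the 16 fell and 0 rose, and 0 were higher at an unadjusted p under 0.05. Gbp4 was at 52.5, 20.3 and 53.4 CPM in control and at 10.5, 10.0 and 9.84 CPM in bleomycin, without overlap, and changed by -2.05 ± 0.45 (adjusted p = 0.0075). Gbp8 changed by -1.43 ± 0.31 (adjusted p = 0.0069), Gbp6 by -1.24 ± 0.33 (adjusted p = 0.018), Gbp9 by -1.11 ± 0.29 (adjusted p = 0.018) and Gm12185 by -2.18 ± 0.60 (adjusted p = 0.020). Gbp4, Gbp8 and Gbp9 overlap on chromosome 5, so their reads may be shared. These 5 of 16 stand beside 18.5% of all genes called lower, and the median of the 16 was -0.62. Without control replicate 2 the count was 8, with Gvin1, Gvin2 and Gbp10 added and a median of -1.07, beside 15.5% of all genes. It was 2 without control replicate 1 or 3 or bleomycin replicate 2, and 3 without bleomycin replicate 3. Those fits called 2770, 2816, 2412 and 3177 of all genes lower, against 3843 with all libraries. Gbp4 and Gbp8 kept their calls in all 9 fits with 1 library left out.

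The 11 relatives that did not pass after bleomycin had estimates on both sides of 0. Gbp10 was at -1.36 ± 0.62 (adjusted p = 0.12) and Gbp2b at -1.33 ± 0.94 (adjusted p = 0.30), with means of 0.965 and 0.0511 CPM in bleomycin. Gvin1 (-0.60) and Gvin2 (-0.64), very large interferon-inducible GTPases with nearly the same counts as each other, cannot be told apart reliably, and Gvin3 was at -0.23. Tgtp1 was at -0.15 and Gm5431 at -0.09. Irgq, an IRG-like gene not known to need interferon, was at 38.4, 47.9 and 34.0 CPM in control and at 44.5, 45.5 and 42.4 CPM in bleomycin (0.14 ± 0.14, adjusted p = 0.49). Irgc (0.64), Gbp11 (0.76) and F830016B08Rik (1.98) were all under 1 CPM on average in every group.

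Between LNP and bleomycin 1 of the 16 relatives rose and 0 fell, where 4.28% of all genes rose. Gbp8 was at 1.52, 1.12 and 1.39 CPM in bleomycin and at 4.91, 4.53 and 3.12 CPM in LNP libraries, all above them, and rose by 1.64 ± 0.31 on the log2 scale (adjusted p = 0.019). Gm5431 (0.87 ± 0.23, adjusted p = 0.054), Gbp6 (0.89 ± 0.33, adjusted p = 0.13), Gbp10 (1.77 ± 0.62, adjusted p = 0.12) and Gbp2b (1.73 ± 0.94, adjusted p = 0.29) also had no overlap but did not pass. Without LNP replicate 3 the count was 6, namely Gbp4, Gbp6, Gbp8, Gbp9, Gbp10 and Gm5431, beside 14.0% of all genes. It was 0 without bleomycin replicate 1 or 2 or LNP replicate 1 or 2, when Gbp8 did not pass. Those fits called 193, 84, 230 and 306 of all genes higher, against 891 with all libraries. Gbp4 showed how far LNP replicate 3 differed, at 28.5, 27.3 and 9.20 CPM in LNP replicates 1 to 3. Against control 0 relatives passed in LNP, with 2 higher and 1 lower at an unadjusted p under 0.05, and 1 (Gm5431) passed as higher without LNP replicate 3.

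**Figure D5:**
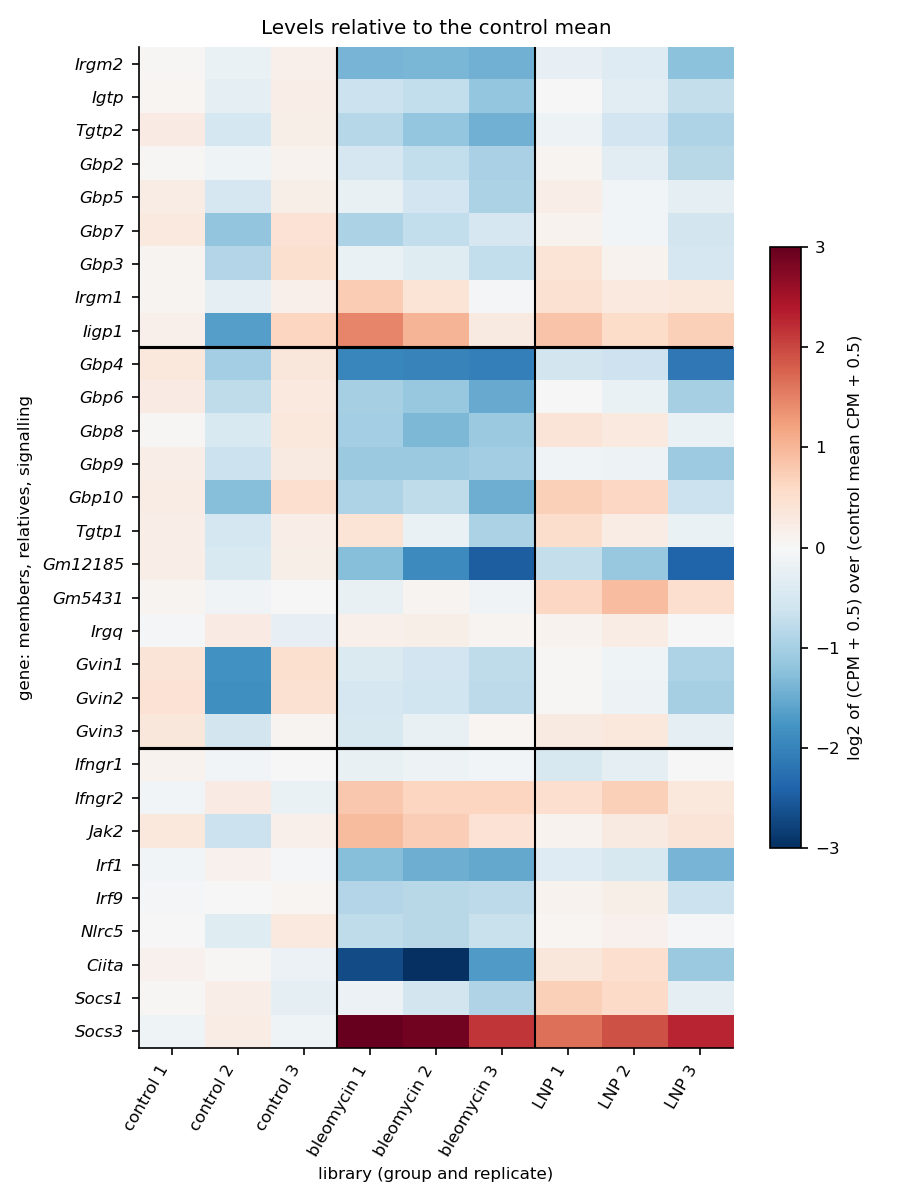
Level of the 9 GTPase genes, 12 relatives and 9 signalling genes (rows) in each library (columns), as log2 of CPM plus 0.5 over the control mean plus 0.5, red for higher and blue for lower, with colours at their limit beyond 3. Control replicate 2 and LNP replicate 3 differ from their groups in the GTPase rows, and Irgm1 and Iigp1 are the member rows that are red in bleomycin replicates 1 and 2.

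Upstream of the GTPases, 26 genes of the interferon-gamma ligand, receptor and signalling were tested. After bleomycin 5 were called higher and 9 lower, beside 15.2% and 18.5% of all genes. The higher count was 3 without control replicate 2, bleomycin replicate 1 or 2, or LNP replicate 1 or 2. Those fits called 2974, 1951, 1963, 2997 and 2956 of all genes higher, against 3159 with all libraries. Ifng itself was barely detected in whole lung, with 0.538, 0.469 and 0.415 CPM in the controls, 0.18, 0 and 0.0453 CPM after bleomycin, and 0.208, 0.196 and 0 CPM in the LNP group. Every control was above every other library, yet bleomycin against control did not pass (adjusted p = 0.13). Ifng was called lower in that comparison without LNP replicate 3, and in no other fit with 1 library left out. The receptor chain Ifngr1 was at -0.15 ± 0.14 (adjusted p = 0.43), while Ifngr2 rose by 0.71 ± 0.15 (adjusted p = 0.0071). Jak2 rose by 0.72 ± 0.24 (adjusted p = 0.042).

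Transcription factors of the list included several that moved the other way. Irf1 was at 148, 173 and 150.5 CPM in control and at 64.6, 56.5 and 53.7 CPM in bleomycin, without overlap, and changed by -1.43 ± 0.24 (adjusted p = 0.0019). Unlike for the GTPases, control replicate 2 was the highest control for Irf1. Ciita, the switch for MHC class II genes, fell by 2.47 ± 0.47 (adjusted p = 0.0037), and Tbx21 and Eomes, factors of T and NK cells, fell by 3.13 ± 0.54 (adjusted p = 0.0024) and 2.99 ± 0.49 (adjusted p = 0.0018). Socs3, a feedback inhibitor of cytokine signalling, rose by 3.01 ± 0.34 (adjusted p = 0.00034). The remaining higher calls were Ptpn2, a phosphatase that restrains this signalling, and Il18rap, a chain of the interleukin-18 receptor.

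In LNP against bleomycin 6 of these 26 genes were called higher and 1 lower, beside 4.28% and 1.87% of all genes. Irf8, a factor of macrophages and B cells, was at 69.9, 83.3 and 83.0 CPM in LNP and at 47.4, 43.4 and 47.8 CPM in bleomycin libraries, and rose by 0.77 ± 0.13 (adjusted p = 0.013). Ciita rose by 2.53 ± 0.47 (adjusted p = 0.018) and Nlrc5, the switch for MHC class I genes, by 0.82 ± 0.18 (adjusted p = 0.031). Eomes rose by 2.45 ± 0.48 (adjusted p = 0.022) and Il12b, a subunit of interleukin-12, by 5.57 ± 1.29 (adjusted p = 0.036) from near 0 in bleomycin. The lower gene was Il18rap, at -0.86 ± 0.20 (adjusted p = 0.039). Irf1 was at 120.2, 112 and 59.6 CPM in LNP replicates 1 to 3. Replicate 3 was at the bleomycin level and the other two were far above it, as for Gbp4 among the relatives. Without that library 11 of the 26 were called higher and 2 lower, Irf1 being among the higher, beside 14.0% and 10.7% of all genes. The higher count was 3 without control replicate 1, 2 without bleomycin replicate 3 and 1 without LNP replicate 1. Those fits called 545, 517 and 230 of all genes higher, against 891 with all libraries. Without bleomycin replicate 1 or 2 or LNP replicate 2 it was 0, where 193, 84 and 306 of all genes were called higher. Il18rap kept its lower call without LNP replicate 3 or control replicate 2 and lost it without any other library. Without bleomycin replicate 3 the 1 gene called lower was Socs3. Against control 2 were called higher in LNP and 0 lower, Socs3 (1.98 ± 0.33, adjusted p = 0.0066) and Irf8 (0.55 ± 0.13, adjusted p = 0.028), and 3 higher without LNP replicate 3. The count was 1 without control replicate 1 or 3, bleomycin replicate 2 or LNP replicate 2, and 4.95% of all genes were called higher in LNP against control. Those fits called 491, 519, 693 and 783 of all genes higher, and the fit without LNP replicate 3 called 1369, against 1030 with all libraries.

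Other genes that interferon-gamma is known to induce did not move as a block after bleomycin. Of 33 tested, 9 were called higher and 9 lower, with a median of -0.19, beside 15.2% and 18.5% of all genes. The lower count was 5 without control replicate 3 or bleomycin replicate 2 or 3. Those fits called 2816, 2412 and 3177 of all genes lower, against 3843 with all libraries. The chemokine Cxcl10 rose by 2.48 ± 0.31 (adjusted p = 0.00051), Fcgr1, the high-affinity antibody receptor of macrophages, by 2.57 ± 0.23 (adjusted p = 0.00015), and the protease inhibitor Serpina3g by 2.95 ± 0.37 (adjusted p = 0.00053). Ccl5, a chemokine of T and NK cells, fell by 1.79 ± 0.21 (adjusted p = 0.00041). Among the members, Irgm1 and Iigp1 had estimates above 0, although neither passed, and 4 fell. As this list held 9 calls in each direction, the sign of a member does not tie it to particular genes of the list. In LNP against bleomycin 11 of the 33 were called higher and 0 lower, beside 4.28% of all genes higher, and 2 were lower at an unadjusted p under 0.05. Ccl5 (1.38 ± 0.21, adjusted p = 0.010), the peptide transporter Tap1 (0.96 ± 0.15, adjusted p = 0.011) and the MHC class II chain H2-Aa (1.77 ± 0.30, adjusted p = 0.014) had the smallest p. Without LNP replicate 3 the counts were 19 higher and 3 lower, beside 14.0% and 10.7% of all genes. The higher count was 5 and 6 without control replicates 1 and 3, where 545 and 518 of all genes were called higher, against 891 with all libraries. It was 0 without bleomycin replicate 2, where 84 of all genes were called higher. Without any 1 of bleomycin replicates 1 and 3 and LNP replicates 1 and 2 it was 3. Those fits called 193, 517, 230 and 306 of all genes higher. Against control, 10 were called higher in LNP and 0 lower, led by Fcgr1 (2.59 ± 0.23, adjusted p = 0.00047) and Cxcl10 (2.99 ± 0.31, adjusted p = 0.0010), and 17 without that library, beside 4.95% and 6.41% of all genes. It was 6 without control replicate 1 or 3, where 491 and 519 of all genes were called higher, against 1030 with all libraries.

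Partners of the GTPases in autophagy and pyroptosis numbered 24. After bleomycin 7 were called higher and 1 lower, beside 15.2% and 18.5% of all genes. The higher count was 4 without any 1 of the controls and 3 without bleomycin replicate 1 or 2, and the lower count was 4 without LNP replicate 3. Without control replicates 1 to 3, 2082, 2974 and 2121 of all genes were called higher, against 3159 with all libraries. Without bleomycin replicates 1 and 2 these were 1951 and 1963. Without LNP replicate 3, 4728 of all genes were called lower, against 3843. Lgals3, a lectin that marks broken vacuoles and is abundant in macrophages, rose by 2.38 ± 0.25 (adjusted p = 0.00028), and the inflammasome product Il1b by 2.17 ± 0.41 (adjusted p = 0.0035). Gabarap, an autophagy protein that helps place the IRG and GBP proteins, rose by 0.55 ± 0.13 (adjusted p = 0.0087). Trim21 was the gene called lower (-1.23 ± 0.22, adjusted p = 0.0026). In LNP against bleomycin 0 were called higher and Il1b was the 1 called lower (-2.20 ± 0.41, adjusted p = 0.018), beside 4.28% and 1.87% of all genes. Without LNP replicate 3 the counts were 3 higher and 5 lower, beside 14.0% and 10.7% of all genes. The lower count was 0 without bleomycin replicate 1 or 2 or LNP replicate 1, where 43, 18 and 41 of all genes were called lower, against 389 with all libraries. Genes stimulated by type I interferon, which share the ISRE with the GTPases, numbered 25. Of these 7 were called higher and 2 lower after bleomycin, 4 higher and 0 lower in LNP against bleomycin, and 11 higher and 0 lower in LNP against control. The shares of all genes, higher and lower, were 15.2% and 18.5%, 4.28% and 1.87%, and 4.95% and 3.08% in these comparisons. Without LNP replicate 3 the higher counts were 12 after bleomycin, 14 in LNP against bleomycin (with 1 lower) and 17 in LNP against control, beside 20.5%, 14.0% and 6.41% of all genes. In LNP against bleomycin the higher count was 2 without control replicate 1 or bleomycin replicate 3, and 0 without bleomycin replicate 2. Those fits called 545, 517 and 84 of all genes higher, against 891 with all libraries. The count was 1 without control replicate 3, bleomycin replicate 1 or LNP replicate 1 or 2. Here 518, 193, 230 and 306 of all genes were called higher. In LNP against control the type I count was 7 without control replicate 1, where 491 of all genes were called higher. Oas3, an antiviral enzyme, rose by 2.16 ± 0.17 after bleomycin (adjusted p = 8.8e-05) and was 2.31 ± 0.17 above control in LNP (adjusted p = 0.0002), whereas Stat2 fell by 0.83 ± 0.12 after bleomycin (adjusted p = 0.00087) and rose by 0.76 ± 0.12 in LNP against bleomycin (adjusted p = 0.010).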

How the data were processed

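Paired-end libraries that mark the strand were prepared from poly(A) RNA of lung (the labels' protocols). Named in the submitters' processing notes are fastp, StringTie and edgeR. The sources used here do not give the aligner, the genome build, or whether counting used strand. The tables that the authors deposited hold, per the file headers, gene and transcript counts in whole numbers and gene FPKM, so overlapping and near-identical genes are uncertain. Groups came from the labels. Replicates differed by more than sampling noise (chi-square per degree of freedom at least 32.5).

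Counts of all 9 libraries entered 1 fit of edgeR 4.0.16 (R 4.3.3) with TMM scaling, filterByExpr (11877 genes left out), a quasi-likelihood F test and Benjamini-Hochberg adjustment over 20794 genes; adjusted p-values are edgeR's unless another tool is named. FPKM served for levels between genes and, as log2(FPKM + 1) and log2(FPKM + 0.1) of the authors' values in limma 3.58.1, as alternatives. Other alternatives were DESeq2 1.42.0, other scalings, no filter, fits of 2 groups, the replicate number as a block, voom with library weights and leaving out each library. Summing Tgtp1 and Tgtp2, and leaving out libraries other than LNP replicate 3 for the gene lists, were chosen after seeing the data.

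The scripts were tested on simulated counts with known changes. Of 100 simulated 2-fold changes, edgeR found 18 in bleomycin against control, 31 in LNP against bleomycin and 24 in LNP against control. In the same order, it found 61, 68 and 67 of 100 4-fold changes. With DESeq2 these numbers were 48, 54 and 56, then 79, 82 and 81. False calls numbered 4, 9 and 3 with edgeR, against 65, 60 and 51 with DESeq2. Most 2-fold changes were thus missed by edgeR, and calls by DESeq2 alone are less certain. The members and gene lists were chosen with earlier results of these data known. Named are all members, all tested relatives, up to 6 called genes with the smallest p per other list, counts of 5 or fewer in full, Ifng, Ifngr1, Ifngr2 and Irf1, up to 2 markers per list, and the 8 nearest patterns. 1 signalling gene is not reported here. Promoter letters are RefSeq's. Tables and plots used Python 3.11.15, pandas 2.3.3 and matplotlib 3.10.9.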

Additional observations from a re-analysis of the deposited data

How the results depend on the processing

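Over the 9 members, single-gene estimates under 172 alternative results per comparison kept their direction and side of the threshold in 158 for bleomycin against control (7 gained a call, 7 lost one, 0 changed sign), 153 for LNP against bleomycin (13 gained, 6 changed sign) and 154 for LNP against control (2 gained, 16 changed sign). Every change of sign was of an estimate that had not passed. Irgm2 passed after bleomycin under every alternative run. Its call in LNP against bleomycin was gained with DESeq2 (adjusted p = 0.0091), library-size scaling (adjusted p = 0.043), voom with library weights and without LNP replicate 3, with adjusted p-values up to 0.19 over the other alternatives.

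Voom with library weights, which gave control replicate 2 and LNP replicate 3 the lowest weights (0.227 and 0.134), called 7 members lower and 1 higher (Iigp1) after bleomycin, 7 higher in LNP against bleomycin and 2 lower (Irgm2 and Tgtp2) in LNP against control. Over all genes it called 5824 higher and 6940 lower, 5811 and 5098, and 2657 and 2901, in these comparisons, against 3159 and 3843, 891 and 389, and 1030 and 641 in the fit reported. DESeq2 and library-size scaling each called 1 member higher in LNP against bleomycin. Over all genes in that comparison DESeq2 called 1930 higher and 1081 lower, fits of the 2 groups alone 218 and 100, and log2(FPKM + 1) with no filter 403 and 136, while library-size scaling called 253 lower and no count filter 197 lower. In LNP against control DESeq2 called 1815 higher and 1122 lower, and fits of the 2 groups alone 679 and 331. The cause of these shifts was not tested.

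Deviations from group means were only weakly correlated between same-numbered samples (from -0.0176 to 0.04). For bleomycin and control the same-numbered pairs (0.0174 to 0.0248) lay above the differently numbered ones (-0.0275 to 0.00228). Values this small, from 3 libraries per group, cannot show whether the numbers pair samples, and the labels do not say so. With the replicate number as a block, 346 genes were called higher and 86 lower in LNP against bleomycin and 401 lower in LNP against control, and no call among the 9 members changed.

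With 1 library left out at a time, members called after bleomycin ranged from 2 to 6 lower and from 0 to 1 higher, and all genes from 1951 to 4374 higher and 2412 to 4728 lower. In LNP against bleomycin members called higher ranged from 0 to 4, and all genes from 84 to 2987 higher and 18 to 2297 lower. In LNP against control all genes ranged from 491 to 1369 higher and 226 to 963 lower. For the other lists the ranges were chosen after seeing the data, except without LNP replicate 3. Relatives called lower after bleomycin ranged from 2 to 8, and those called higher from 0 to 6 in LNP against bleomycin and 0 to 1 in LNP against control. Signalling genes ranged from 3 to 6 higher and 7 to 12 lower after bleomycin, 0 to 11 higher and 0 to 2 lower in LNP against bleomycin, and 1 to 3 higher in LNP against control. Other interferon-gamma targets ranged from 7 to 11 higher and 5 to 12 lower, 0 to 19 higher and 0 to 3 lower, and 6 to 17 higher in the same comparisons.

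Changes of sign in LNP against bleomycin were those of Irgm1, at 0.081 with library-size scaling, 0.086 with log2(FPKM + 1) with and without the filter and 0.098 with log2(FPKM + 0.1), and at -0.24 to 0.16 with 1 library left out, and of Iigp1, at -0.55 to 0.026. In LNP against control they were those of Gbp3, at -0.0022 with voom weights and -0.25 to 0.38 with 1 library left out, and of Gbp5, at 0.0023 with RLE scaling, 0.014 with library-size scaling, 0.010 with 2 groups alone, 0.021 with log2(FPKM + 1) with and without the filter and 0.042 with log2(FPKM + 0.1), and -0.24 to 0.12. Gbp7 was at 0.027 with log2(FPKM + 0.1) and at -0.52 to 0.12.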
